A study of Mus musculus with 16 samples.

Results

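The response of mouse embryonic stem cells (mESCs) to 2i medium was compared between wild-type J1 cells and TKO cells, which were made from J1 and lack functional Dnmt1, Dnmt3a and Dnmt3b. For each gene the change from serum to 2i in J1 was subtracted from the same change in TKO, and the result is called the difference of responses, on the log2 scale. A positive value means that the TKO response lay above the J1 response. The comparison used 12 arrays of the 16 in the series, chosen by their titles: J1 in serum (J1-serum, 4 arrays), J1 in 2i (J1-2i, 3), TKO in serum (TKO-serum, 2) and TKO in 2i (TKO-2i, 3). The 4 remaining arrays, of 3B3l cells, which lack Dnmt3a and Dnmt3b and express exogenous Dnmt3b and Dnmt3l, entered the model for the spread, and also had a part in which probes were kept and which probe read a gene. All 3 lines descend from J1, a male line. Both media contained LIF, which the methods give at a higher dose in 2i than in serum. The 2i medium had no serum and held the MEK inhibitor PD0325901 and the GSK3 inhibitor CHIR99021. The methods state that SNLP feeder cells, inactivated with mitomycin C, lay under the J1 cells in serum, and that the TKO and 3B3l lines were grown without feeders. J1-serum was thus the one group of the comparison on feeders, and the J1 response holds the step from feeders to none together with the change of medium.

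As background, Dnmt3a and Dnmt3b place methyl groups on CG dinucleotides and Dnmt1 copies them at replication, so that TKO cells have almost no DNA methylation in either medium. Wild-type mESCs in serum are heavily methylated, and they lose much of that methylation in 2i. Inhibition of MEK blocks the ERK arm of FGF signalling and inhibition of GSK3 stabilises beta-catenin, the effector of WNT signalling. The comparison asks which changes of gene expression in 2i differ in cells that have no methylation to lose.

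Levels are given as log2 processed signal minus the array's own 75th percentile, so 0 is the level that 75% of the spots of an array fall below. Between 42.1% and 49.0% of the spots of these 12 arrays were well above background, and arrays of 1 group correlated at 0.968 or higher. The arrays lay on 3 slides. Slide 1 held 2 arrays of each of the 4 groups, slide 2 held 1 each of J1-serum, J1-2i and TKO-2i, and slide 3, read on another day, held J1-serum replicate 1. No label says that replicates came from separate cultures, so p-values measure the spread between these arrays, which may be technical. The 7 embryonic stem cell markers checked (Pou5f1, Nanog, Sox2, Zfp42, Esrrb, Dppa5a and Utf1) were well above background on every array of all 4 groups.

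The deleted genes were read first. Dnmt1 signal was 1.61, 1.91, 1.83 and 1.88 in J1-serum, 2.32, 2.36 and 2.45 in J1-2i, -1.70 and -1.65 in TKO-serum and -1.58, -1.42 and -1.64 in TKO-2i. Dnmt3a signal lay between -0.95 and 0.81 in the 7 J1 arrays and was not well above background on any of the 5 TKO arrays, at least 18-fold lower than J1 in serum and at least 5.84-fold lower in 2i. Dnmt3b signal was 2.96 ± 0.09 (SD, n = 4) in J1-serum, 0.63 ± 0.06 (n = 3) in J1-2i, -0.34 ± 0.13 (n = 2) in TKO-serum and -0.64 ± 0.09 (n = 3) in TKO-2i. The TKO arrays thus lay below all J1 arrays for each deleted gene, and signal of Dnmt1 and Dnmt3b remained measurable in TKO. The position of these probes relative to the deletions was not checked. Dnmt3b fell by 2.34 in J1 and changed by -0.30 in TKO, so the responses differed by 2.04 ± 0.16 (SE, limma adjusted p 2.3e-06); the other 2 probes of the gene gave 2.13 and 1.94. The first probe was the brightest through its 3B3l levels (means of 5.53 and 5.82); in J1-serum the second was brighter, at 4.23. Dnmt3a gave 1.67 ± 0.21, with no measurable level in TKO. Both are deleted genes, so these 2 calls are no result about the response.

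Of 13917 genes tested, each by its brightest probe over all 16 arrays, 2119 (15.2%) had a difference of responses of at least 2-fold at a limma adjusted p of at most 0.05; these are the genes called. The TKO response lay above the J1 response for 1077 genes (7.74%) and below it for 1042 (7.49%), and the median over all genes tested was 0.04. By the same rule 2i changed 22.6% of genes in J1 and 15.8% in TKO, and the lines differed at 16.5% of genes in serum and at 7.34% in 2i. Power was not equal for these shares, since the groups differ in their number of arrays, and those with J1-serum include the feeders. Scaling each array by its median moved the median difference to -0.10 and gave 858 positive and 1312 negative calls, so that 39.5% of calls were positive in place of 50.8%. Within slide 1, the slide with all 4 groups, 2312 genes were called, and 2123 with slide as a block. Of the genes tested, 201 passed through 3B3l groups alone, 36 of them called. With probes kept and chosen from the 4 groups of J1 and TKO, a setting added after the data were seen, 2092 of 13719 genes were called, 2081 of them the same genes. Where a group had no array well above background, the difference of responses and its SE are fitted values, neither a measured size nor a bound.

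The most frequent kind of call was a gene that moved at least 2-fold in J1 and less in TKO. Among the positive calls, 457 were at least 2-fold lower in 2i in J1 alone, 206 were at least 2-fold higher in TKO alone, 196 were lower in 2i in both lines and 43 were higher in both, and 22 went opposite ways. Among the negative calls, 430 were higher in 2i in J1 alone, 214 were lower in TKO alone, 94 were lower in both, 57 were higher in both and 26 went opposite ways. The 48 genes that went opposite ways became 22 with normexp, 74 within slide 1 and 13 with probes well above background on all 12 arrays. These groups were set by the measured size of each response and carry no test of their own. For the median positive gene the response was -1.47 in J1 and 0.19 in TKO, and for the median negative gene it was 0.97 in J1 and -0.50 in TKO.

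The 2 lines were more often apart in serum than in 2i. The lines differed at least 2-fold in serum and less in 2i for 606 positive and 575 negative genes, against 166 and 144 that were apart in 2i alone. These 310 genes became 173 with normexp background correction, 525 within slide 1 and 106 with probes well above background on all 12 arrays. Of the 575 negative genes higher in TKO-serum, 271 moved in J1 alone and 121 in TKO alone, and of the 606 positive genes lower in TKO-serum, 252 moved in J1 alone and 123 in TKO alone. Many of these levels were only bounded, since 435 of the positive and 352 of the negative genes were not well above background on any array of at least 1 group.

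**Figure D1:**
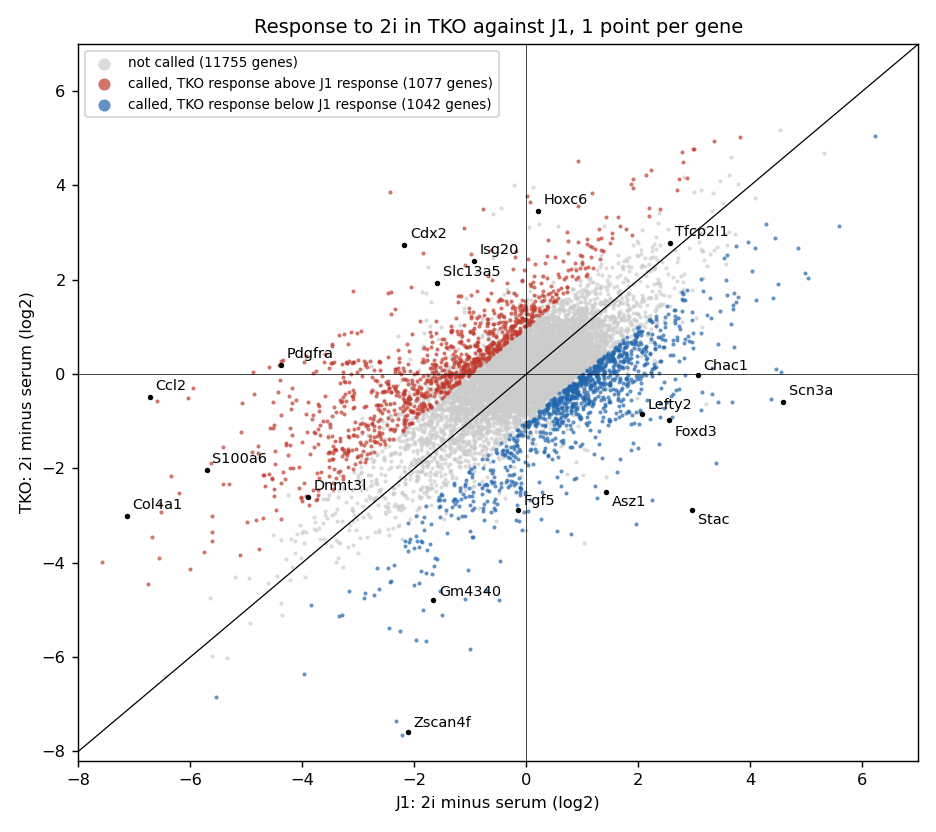
Response to 2i (2i minus serum, log2) in TKO on the vertical axis against that in J1 on the horizontal axis, 1 point per gene, with the line of equal responses. Red points are the 1077 genes called above the line, blue points the 1042 called below it, grey points were not called, and the labelled black points are named in the text. Ccl2, Pdgfra and Col4a1 lie far to the left with smaller responses in TKO, Scn3a and Chac1 far to the right, and Zscan4f far below the line.

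Gene lists of 21 kinds were counted in the same model and described beside all genes tested, without a set test. The share of members called was highest among fibroblast genes (17 of 20 members tested, all positive), genes of primitive endoderm (15 of 19, all positive) and Hox genes (10 of 17, all positive), against 15.2% of all genes. Lists with more negative than positive calls included the genes of the 2-cell state (5 of 11, none positive), targets of the stress factor ATF4 (9 negative and 1 positive of 22), naive pluripotency genes (6 of 22, none positive), the X-linked Xlr, Rhox and Magea genes (6 negative and 1 positive of 17, and 2 negative in the table deposited by the authors) and germline genes (6 negative and 1 positive of 27). Cholesterol synthesis genes (3 of 27) and hypoxia genes (3 positive and 1 negative of 23) were called about as often as genes at large. Of the lists counted further on, the share called was 52.2% for primed-state, 43.8% for WNT and 42.1% for contractile genes. It was 37.5% for neural, 36.8% for Nodal, 31.2% for interferon-responsive, 28.6% for ERK and 24.1% for imprinted genes. A probe was tested if at least 1 group was well above background, so a member that passed through its highest group alone had to differ between groups, and these counts describe the lists and support nothing. On the fibroblast list 20 of 30 genes were tested, on the endoderm list 19 of 21 and on the Hox list 17 of 35. With probes well above background on all 12 arrays, where 10.5% of genes were called, 5 of 6 fibroblast, 4 of 6 endoderm and 2 of 4 Hox members tested were called. The lists were written with earlier results of these arrays known.

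**Figure D2:**
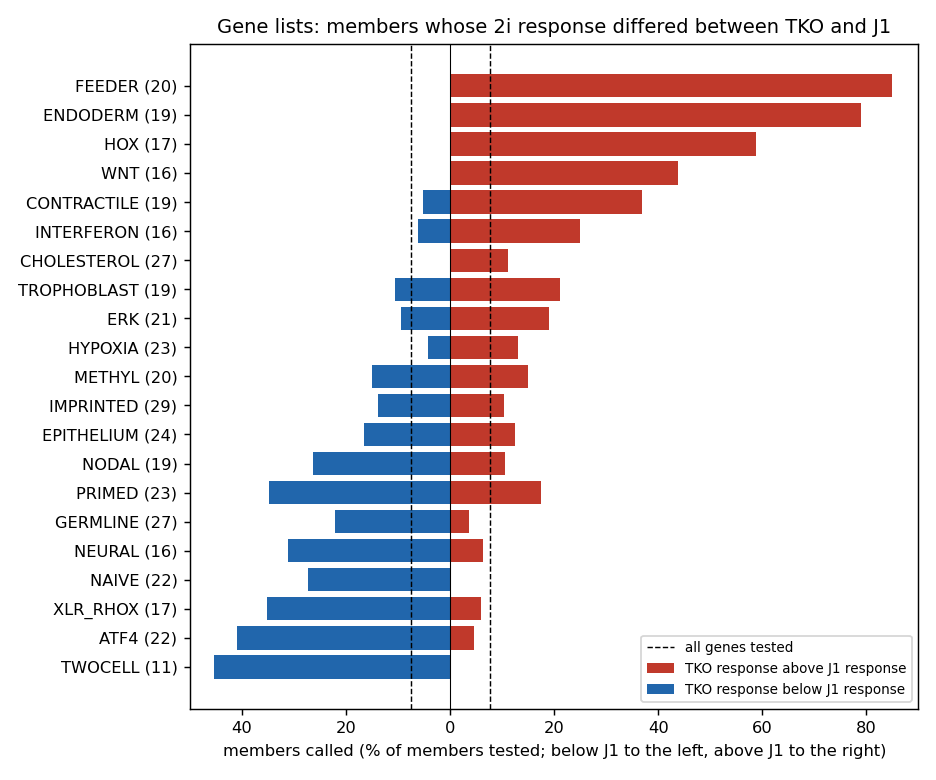
Share of the tested members of each gene list (number tested in brackets) called with the TKO response above the J1 response (red, to the right) or below it (blue, to the left), in percent of members tested. The dashed lines mark the shares over all genes tested, 7.74% and 7.49%. Fibroblast and endoderm genes reach furthest to the right, and genes of the 2-cell state furthest to the left.

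Among the largest positive differences were genes that, of the 4 groups compared, were well above background in J1-serum alone. In 3B3l-serum, without feeders, Ccl2 was also well above background on both arrays, at -1.88 and -1.80. Ccl2, a chemokine of stromal cells, had signals of 2.19, 2.50, 2.65 and 2.23 in J1-serum and between -4.62 and -3.47 in J1-2i, TKO-serum and TKO-2i, where it was not well above background on any array. Pdgfra, a receptor for platelet-derived growth factor, had signals of 0.02, -0.39, -0.17 and -0.11 in J1-serum and between -4.75 and -4.20 in the other 3 groups. The J1-serum arrays lay far above all others for both genes. Ccl2 decreased at least 56.0-fold and Pdgfra at least 9.52-fold in J1, and no fold can be given for TKO, where both media were below background. The fitted differences were 6.23 ± 0.22 (SE) and 4.58 ± 0.19. Of the 4 groups, both genes passed the filter through J1-serum alone, where they are high. A difference between groups was thus built in, and no p-value is given. Cxcl1, another chemokine, Hkdc1, a hexokinase-like gene, and Cck, the gene of the peptide cholecystokinin, had the same pattern of J1-serum against 3 groups at or near background, with differences of 5.67, 5.55 and 4.93; 1 of the 2 TKO-serum arrays was well above background for Cck. Col1a1, a chain of type I collagen, was a different case. Its signals were 2.02, 2.39, 2.78 and 2.79 in J1-serum, -0.46 and -1.60 in TKO-serum and -1.51, -1.65 and -1.69 in TKO-2i, all well above background, and it was below background in J1-2i. Col1a1 fell at least 60.2-fold in J1, was at least 3.49-fold higher in TKO-2i than in J1-2i, and had a difference of 6.0 ± 0.55 (SE, limma adjusted p 7.0e-06).

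Fibroblasts are the kind of cell used as feeders. Of the 20 fibroblast genes tested 17 were called, all positive, against 15.2% of all genes, a count that describes the list and supports nothing. Col1a2, the other chain of that collagen, had signals of 2.37, 2.86, 3.09 and 2.88 in J1-serum, -2.18, -2.44 and -2.29 in J1-2i, -0.69 and -0.60 in TKO-serum and -1.83, -1.78 and -2.0 in TKO-2i. It fell in both lines, by 5.10 in J1 and by 1.22 in TKO, and the difference was 3.88 ± 0.23 (SE, limma adjusted p 2.7e-07). Fbln2, an extracellular matrix protein, fell by 4.40 in J1 and changed by -0.12 in TKO. Dcn, Thy1, Mmp3 and Col3a1 were called too, and Twist1, Loxl1 and Col6a1 were not. The summed signal of the 20 members tested, in units of the 75th percentile of an array, was 55.2 to 61.1 in J1-serum, 8.0 to 8.55 in J1-2i, 15.0 to 15.8 in TKO-serum and 10.8 to 13 in TKO-2i. In 3B3l-serum, which had no feeders, it was 23.2 to 25.5. Of the 6 defining fibroblast markers tested, all were well above background in J1-serum. On every array of TKO-serum and of TKO-2i 5 of the 6 were well above background, all but Dcn, which was above it on no TKO array, and on every J1-2i array 3 of the 6. Line and feeders cannot be told apart for J1-serum.

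Genes of primitive endoderm, the extraembryonic layer that lines the blastocyst cavity, were also highest in J1-serum. Gata6, a transcription factor that specifies this layer, had signals of 2.22, 2.10, 2.24 and 2.28 in J1-serum, -4.46, -4.38 and -4.20 in J1-2i, -0.72 and -1.30 in TKO-serum and -4.48, -4.67 and -2.11 in TKO-2i. Foxa2, a pioneer factor of endoderm, was between -0.58 and -0.27 in J1-serum and below background in the other 3 groups. Col4a1, a basement membrane collagen made in quantity by parietal endoderm, fell at least 135-fold in J1; in TKO, where 1 of 3 TKO-2i arrays was well above background, the fitted fall was 3.01 ± 0.20 (SE) on the log2 scale. These 3 genes were highest in J1-serum without overlap. The fitted differences of responses, all with J1-2i at background, were 3.81 ± 0.74 for Gata6, 4.07 ± 0.28 for Foxa2 and 4.13 ± 0.26 for Col4a1. The limma adjusted p was 0.0021 for Gata6 and 4.1e-07 for Col4a1. Foxa2 passed the filter through J1-serum alone, so a difference was built in and no p-value is given for it. Sox7, Sox17, Gata4, Dab2, Cubn, Amn, Lama1 and Lamb1 were also called, while Sparc, Lamc1 and Hnf4a were among those not called. The summed signal of the 7 endoderm markers was 11.8 to 13.3 in J1-serum, 1.32 to 1.79 in TKO-serum, 1.61 to 1.70 in 3B3l-serum, 0.448 to 0.511 in J1-2i and 0.467 to 0.857 in TKO-2i. The fibroblast sum was also highest in J1-serum, and the part of feeder RNA in the endoderm result was not tested. In bulk RNA, fewer cells of a type and less RNA per cell cannot be told apart.

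**Figure D3:**
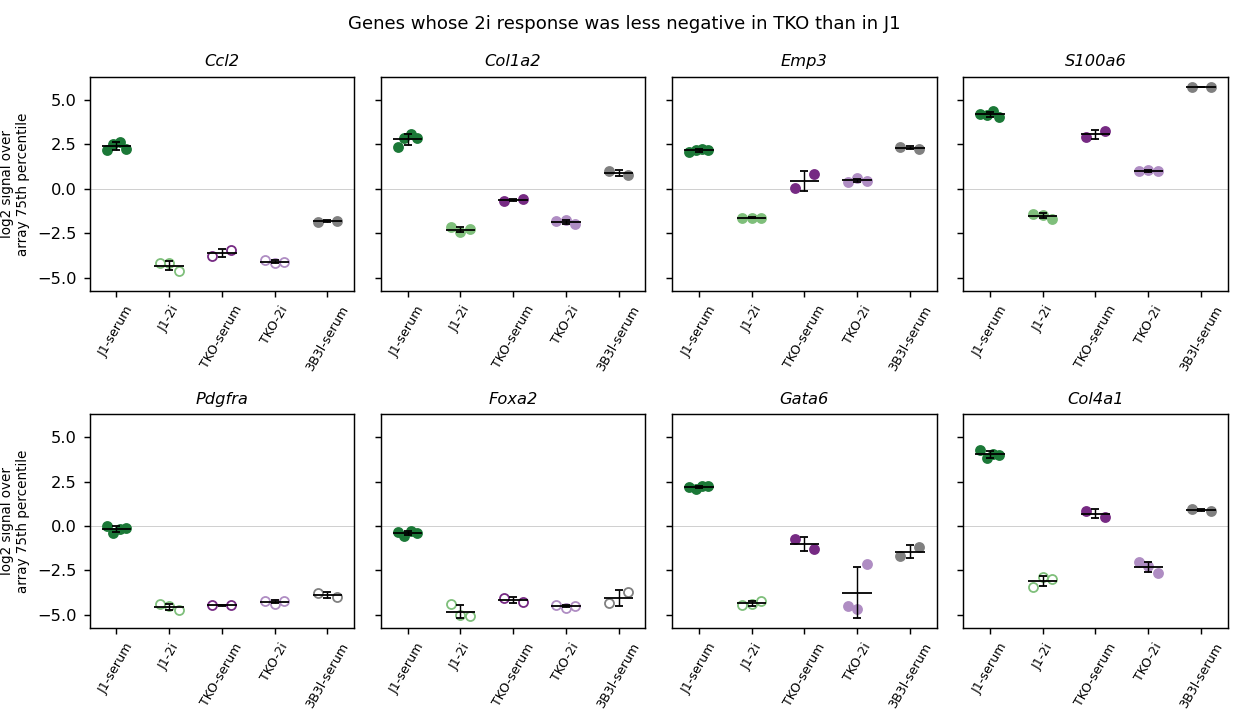
Signal of 8 genes on each array (log2 over the 75th percentile of the array), with mean and SD per group for J1-serum (n = 4), J1-2i (n = 3), TKO-serum (n = 2), TKO-2i (n = 3) and, beside them, 3B3l-serum (n = 2). Open circles mark groups in which no array was well above background. J1-serum is the highest group for Ccl2, Col1a2, Pdgfra, Foxa2, Gata6 and Col4a1, while Emp3 and S100a6 were as high or higher in 3B3l-serum.

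Among genes well above background on all 12 arrays, some fell far in J1 and less or not at all in TKO. Emp3, a small membrane protein, was 2.07 to 2.25 in J1-serum and -1.66 to -1.62 in J1-2i, and 0.06 and 0.83 in TKO-serum against 0.39, 0.59 and 0.42 in TKO-2i. Its difference was 3.83 ± 0.22 (SE, limma adjusted p 2.3e-07). S100a6, a calcium-binding protein, was called at 3.67 ± 0.19 and fell in both lines, by 5.71 in J1 and by 2.04 in TKO. Serping1, an inhibitor of complement, fell by 2.97 in J1 and changed by 0.10 in TKO, a difference of 3.08 beside 1.99 on its other probe. In 3B3l-serum, without feeders, the means of S100a6 and Emp3 were 5.73 and 2.31, while Serping1, S100a4 and Fbln2 were lower there than in J1-serum, with means of -0.24, 0.03 and -0.47 beside 1.44, 2.79 and 2.60. Contractile and YAP-responsive genes had 7 positive calls and 1 negative call of 19; Acta2 and Ccn1 fell in both lines and further in J1, with differences of 2.67 and 3.08, Ccn2 fell by 3.71 in J1 and changed by -0.79 in TKO, and Myl9 was called at -1.32. Ankrd1, a YAP target, was below background in both 2i groups; it fell at least 37.6-fold in J1 and at least 4.11-fold in TKO, and its difference of 3.22 is a fitted value.

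Targets of ERK, which the MEK inhibitor blocks, were called in both directions. Of 21 tested, 4 were called positive (Ier3, Etv4, Dusp4 and Fosl1) and 2 negative (Fgf15 and Egr1), and the median difference was 0.00. The median response was -1.74 in J1 and -1.23 in TKO. Etv4, an ETS factor induced by FGF signalling, fell by 1.27 in J1 and changed by 0.50 in TKO, which left it 2.14 higher in TKO-2i than in J1-2i. Fgf15 fell from 0.11 ± 0.16 (SD, n = 4) in J1-serum and from 1.95 and 2.37 in TKO-serum to below background in both 2i groups, at least 11-fold in J1 and at least 45.6-fold in TKO. Without TKO-serum replicate 2 the positive calls in this list were 2. Fosl1 was then 0.88, Dusp4 lost its call with any of 8 arrays left out (1.34 to 1.69), and Egr1 lost it without TKO-serum replicate 1 (-1.41).

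Other positive genes rose in TKO from a serum level below that of J1. Slc13a5, a citrate transporter, was 0.94 to 1.27 in J1-serum and -0.58 to -0.41 in J1-2i, and -2.44 and -2.58 in TKO-serum against -0.23, -0.73 and -0.74 in TKO-2i. It thus fell in J1 and rose in TKO, the 2i groups overlapped, and the difference was 3.53 ± 0.20 (SE, limma adjusted p 1.9e-07). Axl, a receptor tyrosine kinase, went the same opposite ways, falling by 2.34 in J1 and rising by 1.37 in TKO. Scd1, a fatty acid desaturase, rose by 1.08 in J1 and by 2.86 in TKO, while Insig1 and Sc5d of sterol metabolism rose in TKO by 1.12 and 1.03 and changed by -0.21 and -0.27 in J1. These were the 3 called genes of the 27 tested in the cholesterol list. Among interferon-responsive genes, B2m, Ifi27, Stat2 and Xaf1 were called positive and Ifitm3 negative, of 16 tested. Stat2, a subunit of the interferon-activated factor ISGF3, was 1.80 in J1-serum and 1.59 in J1-2i and rose from 0.21 to 1.54 in TKO (means).

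Other genes were higher in TKO-2i than in the other 3 groups. Isg20, an exonuclease induced by interferon, had signals of -0.97, -0.89, -0.98 and -1.16 in J1-serum, -1.85, -2.14 and -1.79 in J1-2i, -2.47 and -2.05 in TKO-serum and 0.11, 0.28 and 0.03 in TKO-2i. The TKO-2i arrays lay above all others, and the difference was 3.33 ± 0.19 (SE, limma adjusted p 2.2e-07). Cdx2, a caudal-type homeobox factor that responds to WNT, was below background in J1-2i and TKO-serum and was -2.15, -1.95 and -1.79 in TKO-2i, at least 2.74-fold higher than in J1-2i and at least 3.0-fold higher than in TKO-serum. In J1 the fitted response of Cdx2 was -2.18, from a J1-serum level that was well above background on 1 of 4 arrays. T (brachyury), another WNT target, reached -2.44, -2.45 and -1.98 in TKO-2i, with 1 of the 3 arrays well above background, and was below background in the other 3 groups. T was tested because it was well above background on both 3B3l-2i arrays, and Wnt3 through 3B3l-serum alone; neither would have been tested on the 4 groups of J1 and TKO, where 5 WNT genes were called.

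Cdx1 and Sp5, WNT targets that rose in both lines, rose further in TKO. Cdx1 had means of -1.68 in J1-serum, 1.29 in J1-2i, -2.15 in TKO-serum and 2.62 in TKO-2i, so it rose by 2.97 in J1 and by 4.77 in TKO. Sp5 rose by 1.64 and 3.33. Axin2, the feedback inhibitor that is the most widely used readout of beta-catenin, was 2.81 higher in 2i in J1 and 4.18 in TKO, and its difference of 1.38 ± 0.53 did not pass (limma adjusted p 0.076). Of the 16 WNT genes tested 7 were called, all positive, but not all in this way, since Nkd1 fell at least 6.03-fold in J1 and at least 2.15-fold in TKO, and Dkk1 fell at least 7.23-fold in J1 and at least 1.39-fold in TKO. Dkk1, a secreted WNT inhibitor, was, like Nkd1, above background in both serum groups and below it in both 2i groups.

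Hox genes, which pattern the body axis and are silenced by Polycomb in mESCs, were mostly dim. Of 35 on the list 17 were tested and 10 called, all positive. Hoxc6 was not above background in J1-serum or TKO-serum and was -1.25, -1.21 and -1.22 in TKO-2i, at least 4.98-fold higher than in TKO-serum. Hoxd8 was below background in serum and increased at least 2.09-fold in J1 and at least 7.91-fold in TKO. Of the 17, 4 were well above background on all 12 arrays, and normexp background correction left 6 calls in place of 10.

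**Figure D4:**
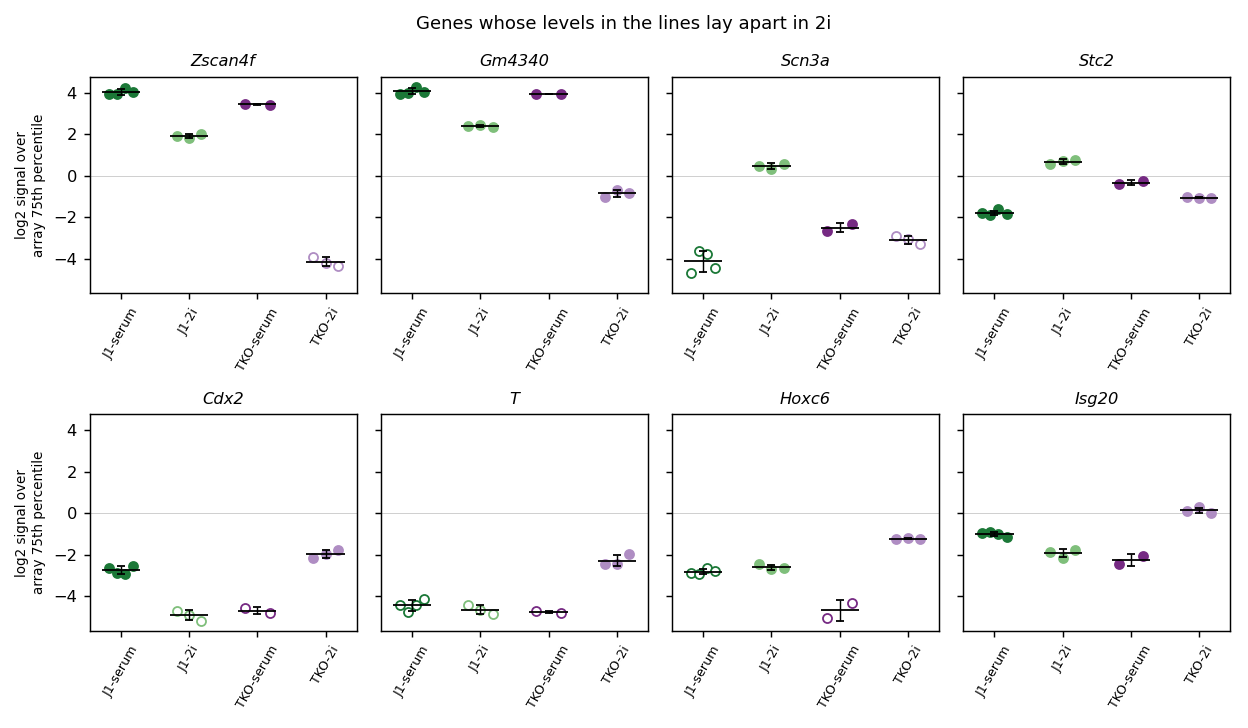
Signal of 8 genes on each array (log2 over the 75th percentile of the array), with mean and SD per group for J1-serum (n = 4), J1-2i (n = 3), TKO-serum (n = 2) and TKO-2i (n = 3). Open circles mark groups in which no array was well above background. Zscan4f and Gm4340 were lowest in TKO-2i, Scn3a and Stc2 highest in J1-2i, and Cdx2, T, Hoxc6 and Isg20 highest in TKO-2i.

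The negative side included germline genes, a class that DNA methylation is known to silence in somatic and pluripotent cells. Of 27 tested, 6 were called negative (Asz1, Hormad1, Stk31, Fkbp6, Tex14 and Dazl) and 1 positive (Sycp3). The call of Sycp3 at 1.07 ± 0.22 was lost without J1-2i replicate 1 (1.0) or TKO-serum replicate 1 (0.81). The promoters of 3 of them follow, with that of Zscan4f, a gene of the 2-cell state described further on, for contrast. They are RefSeq sequences of build GRCm38.p6, 250 bases before to 50 bases after the annotated start, 5′ to 3′ on the strand of the gene, with each CG dinucleotide in capitals.
Asz1 (chr6:18109012-18109311, minus strand): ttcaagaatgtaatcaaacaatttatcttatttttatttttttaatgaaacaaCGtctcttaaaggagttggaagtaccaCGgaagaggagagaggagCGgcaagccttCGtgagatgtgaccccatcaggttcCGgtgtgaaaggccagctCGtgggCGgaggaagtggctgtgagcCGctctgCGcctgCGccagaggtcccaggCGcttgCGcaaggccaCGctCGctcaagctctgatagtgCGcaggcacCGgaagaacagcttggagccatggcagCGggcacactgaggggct
Fkbp6 (chr5:135349995-135350294, minus strand): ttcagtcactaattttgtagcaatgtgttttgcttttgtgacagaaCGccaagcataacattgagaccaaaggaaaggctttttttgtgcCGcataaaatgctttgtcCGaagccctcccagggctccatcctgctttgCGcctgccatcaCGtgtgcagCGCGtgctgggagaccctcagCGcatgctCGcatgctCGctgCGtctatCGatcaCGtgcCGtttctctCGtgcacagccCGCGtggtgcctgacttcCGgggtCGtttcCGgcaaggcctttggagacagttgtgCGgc
Hormad1 (chr3:95559427-95559726, plus strand): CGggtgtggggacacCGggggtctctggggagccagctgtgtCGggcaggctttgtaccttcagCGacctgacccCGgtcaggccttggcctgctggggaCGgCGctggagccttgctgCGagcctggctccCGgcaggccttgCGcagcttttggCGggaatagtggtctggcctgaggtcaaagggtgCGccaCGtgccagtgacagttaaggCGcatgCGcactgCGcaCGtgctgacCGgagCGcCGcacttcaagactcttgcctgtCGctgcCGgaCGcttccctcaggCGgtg
Zscan4f (chr7:11397665-11397964, plus strand): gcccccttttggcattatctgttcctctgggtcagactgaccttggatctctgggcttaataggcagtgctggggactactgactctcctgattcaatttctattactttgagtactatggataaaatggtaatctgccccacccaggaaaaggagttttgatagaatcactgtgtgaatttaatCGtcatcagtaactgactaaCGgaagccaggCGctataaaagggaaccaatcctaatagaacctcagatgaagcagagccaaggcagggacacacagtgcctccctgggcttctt
The 4 windows hold 17, 21, 24 and 3 CG dinucleotides, and the median was 7 over the 27025 genes of the promoter table and 19 over the genes tested here that have a promoter in it. Of the 24 germline genes with a promoter in the table, 12 (50.0%) hold CACGTG, a motif that is its own reverse complement, against 7.24% of all promoters and 9.93% of those of the genes tested, and 3 hold GCGGGAAA on either strand, against 1.11% and 1.99%. Where a gene had several starts, the one farthest upstream was used. A match describes the letters of the window and not a bound site. CACGTG was held by 8.63% of positive and 9.67% of negative genes with a promoter in the table and GCGGGAAA by 1.65% and 1.61%, and the median CG counts were 16 and 15. The table covered 78.6% of positive genes, 77.4% of negative genes and 79.7% of all genes tested. These shares are below the 80% set as the minimum, so the comparison of called genes with the rest is void and nothing is read from it.

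Asz1, a component of the piRNA pathway of germ cells, whose promoter is the first shown, was below background in all J1 arrays and had signals of 0.30 and 0.69 in TKO-serum and -2.12, -2.05 and -1.85 in TKO-2i. TKO-serum exceeded J1-serum at least 14.4-fold and TKO-2i exceeded J1-2i at least 2.11-fold, and Asz1 fell by 2.50 ± 0.24 (SE) in TKO. Fkbp6, a cochaperone of the same pathway, was -0.43, -0.23, -0.38 and -0.32 in J1-serum, 2.08, 2.15 and 2.02 in J1-2i, 2.24 and 2.80 in TKO-serum and 3.22, 3.29 and 3.52 in TKO-2i. On this probe J1-2i came close to TKO-serum, and the difference was -1.60 ± 0.20 (SE, limma adjusted p 0.0001). The other probe of Fkbp6 gave -1.41 ± 0.24, and there the mean of J1-2i was 0.56, below 2.52 in TKO-serum and 2.37 in TKO-2i. Hormad1, a protein of meiotic chromosome axes, rose by 1.41 in J1 and changed by -0.79 in TKO, with a difference of -2.20 ± 0.17 (limma adjusted p 1.8e-06). Its other probes gave smaller differences of -1.46 and -1.31, both called. On these Hormad1 changed by 0.96 and 0.20 in J1 and by -0.49 and -1.11 in TKO, the second being a dim probe.

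Germline genes did not move as a block. Stk31 rose in J1 by 1.19 and was -0.61 in TKO, and its J1-2i level of 0.65 lay beside 0.82 in TKO-serum (means). Dazl, a translational regulator of germ cells, had signals of -0.06, 0.56, 0.55 and 0.62 in J1-serum, 2.53, 2.39 and 2.88 in J1-2i, 3.00 and 2.49 in TKO-serum and 3.87, 3.82 and 3.99 in TKO-2i. It rose in both lines, and its difference of -1.04 ± 0.29 (limma adjusted p 0.018) passed the threshold narrowly: without J1-serum replicate 1, J1-2i replicate 3 or TKO-serum replicate 1 it was -0.88, -0.90 and -0.79. With slide as a block the difference of Dazl was -0.84 and within slide 1 it was -0.97, neither called. Mael, Ddx4, Stra8, Piwil2 and Smc1b had lower means in 2i in both lines, with differences between -0.59 and 0.34, none of them called. The median difference of the list was -0.61.

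X-linked genes of the Xlr family, which are expressed in the germline and lymphoid cells, included several that were higher in TKO-serum than in J1-serum. Xlr5c was -0.68, -0.54, -0.61 and -0.61 in J1-serum, 0.43, 0.44 and 0.55 in J1-2i, 2.79 and 3.11 in TKO-serum and 1.98, 2.04 and 2.10 in TKO-2i. TKO arrays lay above all J1 arrays, and the lines came closer in 2i, with a difference of -2.0 ± 0.21 (SE, limma adjusted p 2.5e-05). Xlr5a, Xlr5b, Xlr4a, Xlr4b and Magea4 were called the same way, at -2.47 to -1.23. Xlr5a was 0.78 higher in TKO-2i than in J1-2i, which did not pass (limma adjusted p 0.17). In the table deposited by the authors 2 members of this list were called negative in place of 6. Members of these clusters are close copies and their probes may read each other's transcripts. Rhox5, a homeobox gene of reproductive tissues, went the other way: it fell by 1.68 in J1 and changed by 0.12 in TKO, and was 2.20 higher in TKO-2i than in J1-2i. Nxf3, an X-linked relative of the mRNA export factor, was -2.02 to -1.86 in J1-serum and 0.61 to 0.90 in J1-2i. In TKO it was 1.65 and 0.76 in serum and 1.25, 1.07 and 0.97 in 2i. Every TKO-2i array of Nxf3 lay above the J1-2i arrays, by 0.37 in the means (limma adjusted p 0.31).

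**Figure D5:**
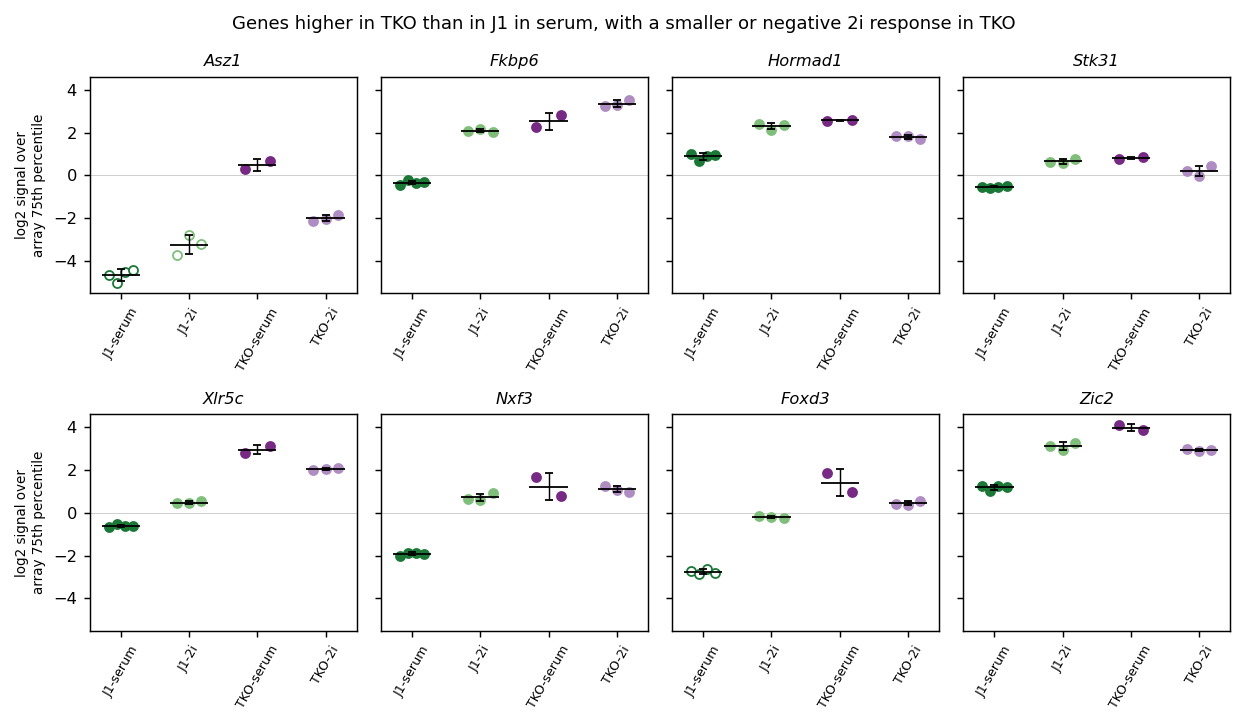
Signal of 8 genes on each array (log2 over the 75th percentile of the array), with mean and SD per group for J1-serum (n = 4), J1-2i (n = 3), TKO-serum (n = 2) and TKO-2i (n = 3). Open circles mark groups in which no array was well above background. In each panel TKO-serum lies above J1-serum, and in 2i the means of the lines differed by -0.50 (Hormad1) to 1.57 (Xlr5c).

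Foxd3, Zic2 and Sox21, transcription factors of the epiblast and early neural plate, were higher in TKO-serum than in J1-serum and less than 2-fold apart in 2i. Foxd3, a forkhead factor of epiblast and neural crest, was below background in J1-serum, -0.15, -0.21 and -0.27 in J1-2i, 1.86 and 0.95 in TKO-serum and 0.40, 0.36 and 0.55 in TKO-2i. It increased at least 5.51-fold in J1, was at least 16.9-fold higher in TKO-serum than in J1-serum, and had a difference of -3.51 ± 0.29 (SE, limma adjusted p 3.3e-06). In 2i it was 0.65 higher in TKO (limma adjusted p 0.034). Zic2, a zinc finger factor of the epiblast, was 1.01 to 1.27 in J1-serum, 2.91 to 3.27 in J1-2i, 4.08 and 3.85 in TKO-serum and 2.89 to 2.97 in TKO-2i. It rose by 1.92 in J1 and fell by 1.03 in TKO, and the 2i groups overlapped. Sox21, a SOX factor of neural progenitors, rose by 2.01 in J1 and fell by 1.06 in TKO, a difference of -3.07. Its other probe changed by 0.60 and -0.66, both under 2-fold, with a smaller difference of -1.26, also called.

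Other epiblast genes fell in TKO alone. Otx2, which directs the exit from naive pluripotency, changed by -0.09 in J1 and fell by 2.04 in TKO. Fgf5, the classical marker of the primed state, was below background in both J1 groups, -1.91 and -2.01 in TKO-serum, and below background in TKO-2i, a decrease of at least 2.62-fold. Zic5 and Lin28b fell in TKO with changes of -0.14 and 0.15 in J1. Of the 23 primed-state genes tested 8 were called negative and 4 positive, and 2 of the positive ones are the deleted Dnmt3a and Dnmt3b. Neural genes had 5 negative calls (Pax6, Stmn2, Zic1, Ncam1 and Map2) and 1 positive of 16. Another 2 probes of Ncam1 were not called, at 0.33 and 0.02.

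Among Nodal pathway genes, the inhibitors Lefty1 and Lefty2, which are direct targets of Nodal signalling, were both called negative. Lefty2 signal was 2.79, 2.70, 2.90 and 2.78 in J1-serum, 5.01, 4.81 and 4.78 in J1-2i, 4.79 and 4.80 in TKO-serum and 3.85, 3.95 and 4.06 in TKO-2i. It rose by 2.07 in J1 and changed by -0.84 in TKO, a difference of -2.92 ± 0.14 (SE, limma adjusted p 5.5e-08). Lefty1 fell by 2.71 in TKO and changed by -0.57 in J1. The ligand Gdf3 rose by 1.35 in J1 and changed by -0.19 in TKO, and its other probe gave a difference of -0.82, not called, while Nodal itself was not called at -0.79 ± 0.19. Eomes, a T-box factor, rose in both lines and its call at -1.10 was lost without TKO-serum replicate 1 (-0.80) or TKO-2i replicate 2 (-0.99), and its other probe gave -0.80, not called. Of 19 tested, 5 were negative and 2 positive (T and Furin). Furin lost its call without TKO-serum replicate 2 (0.97), and without TKO-serum replicate 1 the negative calls were 3.

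Targets of ATF4, the factor that induces amino acid synthesis and transport under stress, were called negative more often than positive, and Stc2 and Chac1 were among the 10 largest negative differences of genes well above background on all 12 arrays. Chac1, a glutathione-degrading enzyme, was 1.43, 1.78, 1.5 and 1.41 in J1-serum, 4.64, 4.54 and 4.58 in J1-2i, 2.96 and 3.37 in TKO-serum and 3.33, 3.19 and 2.91 in TKO-2i. J1-2i was the highest group: Chac1 rose by 3.06 in J1 and changed by -0.02 in TKO, and the difference was -3.08 ± 0.24 (SE, limma adjusted p 2.1e-06). Stc2, a secreted glycoprotein, rose by 2.46 in J1 and changed by -0.72 in TKO. Slc7a3, a transporter of cationic amino acids, and Cth, of cysteine synthesis, each rose by 2.24 in J1 and changed by -0.05 and 0.11 in TKO, where their serum means were 4.35 and 3.49, beside 4.48 and 3.88 in J1-2i. Atf4 itself was not called, at -0.59 ± 0.22, and Ddit3 was called positive at 1.87 ± 0.31.

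Genes of the 2-cell state, which a small and changing fraction of mESCs express, had 5 calls among 11 tested, all negative. Zscan4f, a zinc finger and SCAN domain gene of that state, had signals of 3.95, 3.93, 4.25 and 4.04 in J1-serum, 1.93, 1.82 and 2.04 in J1-2i, 3.47 and 3.44 in TKO-serum, and -3.89, -4.18 and -4.34 in TKO-2i, where it was below background. It fell by 2.11 in J1 and at least 112-fold in TKO, and J1-2i was at least 38.9-fold above TKO-2i. Zscan4b fell by 2.22 in J1 and at least 77.2-fold in TKO. Zscan4b, Gm4312 and AF067061 are not among the 11 genes counted and are given for the size of their differences. Gm4340, Gm4312 and AF067061, a family of close copies, were well above background on all 12 arrays; Gm4340 fell from 4.07 to 2.41 in J1 and from 3.95 to -0.85 in TKO (means), with a difference of -3.13 ± 0.16 (SE, limma adjusted p 1.1e-07).

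Probes of this group did not all read alike. Zscan4c had a difference of -1.05, which lost its call without 1 of 3 arrays in turn (-0.99 to -0.87), and Zscan4a one of -0.13, which was not called, although the genes are near-identical copies and each probe may read several of them. Tcstv1 and Tmem92 were called negative, Tmem92 at -1.49. Tcstv1 was below background in both 2i groups and fell at least 5.56-fold in J1 and at least 7.0-fold in TKO, so its -1.63 is a fitted value. Tcstv3, Zfp352, Usp17la, Usp17ld and Eif1a were not called. The median of the 11 genes tested was -0.15. The table deposited by the authors and the filter on all 12 arrays each gave 2 negative calls in this list.

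Stac, Scn3a and Hhip, which were in no list, were among the 5 largest negative differences with a group below background, and each was gained by J1 in 2i. Scn3a, a subunit of a voltage-gated sodium channel, was below background in J1-serum, 0.49, 0.32 and 0.59 in J1-2i, -2.64 and -2.34 in TKO-serum, where 1 of 2 arrays was well above background, and below background in TKO-2i. It increased at least 14.2-fold in J1 and J1-2i was at least 11.8-fold above TKO-2i. Stac, an adaptor of calcium channels, was below background in J1-serum and TKO-2i and above it in J1-2i and TKO-serum, so that it increased at least 3.81-fold in J1 and decreased at least 4.86-fold in TKO. Hhip, a Hedgehog-binding inhibitor, was -0.26 to 0.18 in J1-2i, 0.06 and 0.25 in TKO-serum, -1.87 to -1.58 in TKO-2i and below background in J1-serum. Hhip increased at least 6.21-fold in J1. The fitted differences, each with J1-serum at background, were -5.19 ± 0.35 (SE) for Scn3a, -5.85 ± 0.50 for Stac and -5.28 ± 0.62 for Hhip. The limma adjusted p was 4.0e-06 for Stac and 5.2e-05 for Hhip. Of the 4 groups, Scn3a passed the filter through J1-2i alone, so a difference was built in and no p-value is given for it.

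Several core factors of the naive network were not called. Tfcp2l1, a transcription factor of the naive state, rose by 2.56 in J1 and by 2.78 in TKO, a difference of 0.22 ± 0.21 (SE, limma adjusted p 0.51). Tbx3 rose by 2.35 and 2.02, with a difference of -0.33 ± 0.15. Klf4 and Esrrb gave -0.26 ± 0.18 and -0.33 ± 0.13, and none of these 4 was called. The brightest probe of Nanog was saturated on at least 1 array of each of the 4 groups, so its -0.04 is no measure of the response. On the unsaturated probe Nanog rose by 1.40 in J1 and changed by 0.51 in TKO, and the difference of -0.90 ± 0.23 (SE, limma adjusted p 0.012) was under 2-fold and not called. A p above the threshold does not show that the responses were equal. Klf2 was not called at -0.75 ± 0.22, and reached -1.04 (limma adjusted p 0.0028) without TKO-serum replicate 2.

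Further naive genes were called, all with a smaller response in TKO. Prdm14, a repressor of the methyltransferase genes, was 0.01, 0.17, 0.00 and 0.15 in J1-serum, 2.89, 2.77 and 2.95 in J1-2i, 1.00 and 1.19 in TKO-serum and 2.73, 2.55 and 2.69 in TKO-2i. It started higher in TKO and reached a similar level, with a difference of -1.22 ± 0.15 (SE, limma adjusted p 8.4e-05). Nr0b1 rose by 1.56 in J1 and changed by -0.12 in TKO, Nr5a2 rose by 1.94 and changed by 0.82, and Spic rose by 4.85 and 2.68. The other probe of Nr5a2 gave a difference of -1.0, and slide as a block gave -0.98, neither called. Klf5 and Sall4 were called at -1.53 and -1.01. Klf5 lost its call without TKO-serum replicate 1 (-1.0), and Sall4 lost it with 1 of 6 arrays left out in turn, at -0.99 to -0.75. Of the other genes of DNA methylation, Dnmt3l, the cofactor of the de novo enzymes, fell in both lines, by 3.90 in J1 and at least 2.60 in TKO. Both TKO-serum arrays were saturated for it, so its difference of 1.30, which was called, is an upper limit and may lie under 2-fold. The dioxygenase genes Tet1 and Tet2 were called at -1.13 and -1.23. The call of Tet1 was lost without J1-2i replicate 3 (-0.97) or TKO-serum replicate 1 (-0.98). Uhrf1, Hells, Tdg and Dppa3 were not called.

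Imprinted genes, whose expressed allele is set by methylation, had 3 positive (Dcn, Igf2 and Nnat) and 4 negative calls (Slc38a4, Plagl1, Peg3 and Ndn) of 29, with a median difference of -0.48. The share called was 24.1%, against 15.2% of all genes tested. Dcn is also a fibroblast marker. Slc38a4, an amino acid transporter, had means of 2.91 in J1-serum, 1.28 in J1-2i, 2.84 in TKO-serum and -1.04 in TKO-2i, and fell further in TKO by 2.25 ± 0.23 (SE, limma adjusted p 1.7e-05). Plagl1 rose by 3.16 in J1 and by 1.76 in TKO, of its other probes 1 gave -1.41 and 1 gave 1.31, not called, so that its probes disagree. The genes Meg3, Mest, H13 and Igf2r were not called. Nnat lost its call without TKO-serum replicate 2 (1.35), Peg3 without TKO-serum replicate 1 (-1.01), and Igf2 without any 1 of 5 arrays of J1-2i, TKO-serum and TKO-2i (1.82 to 2.03). Scaling by the array median gave 7 negative calls in this list.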

How the data were processed

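RNA of 16 samples was hybridised to 1-colour Agilent mouse arrays, 1 array per sample. Per the file headers, the deposited processed signal intensity came from Agilent Feature Extraction 11.5.1.1, background-subtracted and detrended within each array. The authors also deposited a log2 table of part of the probes, used as an alternative only.

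Control spots and flagged outliers were left out, log2 processed signal was reduced by its 75th percentile on each array, and spots of 1 probe were averaged. Of 55681 probes, 28026 were named through RefSeq accessions. A probe was kept (27126 were) if, in 1 or more of the 6 groups, all arrays read it well above background. Limma 3.58.1 (R 4.3.3) fitted the 6 group means over 16 arrays, with Benjamini-Hochberg adjustment over all probes kept, and each gene was read by its probe of highest mean. Calls required a 2-fold difference and an adjusted p no higher than 0.05. Where a group was below background, a bound is given against the lowest signal that an array read well above background. Precision is limited by how many arrays there are. The procedure was tested on simulated data.

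Genes were named by rule: the 10 largest stable calls bright on all 12 arrays and the 5 largest with a dim group in each direction, up to 4 members per list, and 16 genes of interest; members mentioned beside these come from the lists and were chosen after their values were seen. The members and lists were chosen with earlier results of these data known. Replicate numbers do not pair the samples: same-numbered residuals correlated at -0.0157 on average over 15 pairs.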

Additional observations from a re-analysis of the deposited data

Results flagged for a closer look

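In 4 of the 105 genes named by rule, 1 of the 4 J1-serum arrays stood far from the rest, and chance gives about 1 in 20 groups such an array. Replicate 1, the J1 array on another slide and scan day, was the far array for Dazl (-0.06, nearest 0.55), Zic5 (-1.21, nearest -0.96) and Sox21 (-1.77, nearest -1.45), and replicate 3 for Zscan4b (3.59, nearest 3.34). With slide as a block the difference of Dazl was -0.84 and no longer called.

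The 2i responses of the lines differed in the limma interaction for 2119 genes. Among the named genes 9 passed the threshold in opposite directions in the 2 lines. Axl (3.72) and Slc13a5 (3.53) fell in J1 and rose in TKO. Cdx2 (4.92) rose in TKO, and its J1 fall is a fitted value, since 1 of 4 J1-serum and 0 of 3 J1-2i arrays detected it above background. Rmdn2 (-2.77), Zic2 (-2.95), Sox21 (-3.07), Asz1 (-3.93), Hhip (-5.28) and Stac (-5.85) rose in J1 and fell in TKO. The other probe of Sox21 changed by less than 2-fold in each line (0.60 and -0.66). For Asz1 both J1 groups were below background, so its J1 rise is a fitted value only.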

How the results depend on the processing

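The count of 2119 genes fell to 1126 (533 positive, 593 negative) with probes well above background on all 12 arrays, where fewer genes (10709) were tested, and rose to 4213 (2142 positive, 2071 negative) with no fold change limit. Leaving out 1 array gave 1954 to 2254 calls, 968 to 1137 positive and 986 to 1123 negative. The other settings gave 1615 (normexp background) to 2418 (any probe). The replicate block gave 2045, and changed no call of a named gene. The saturated probe of Nanog, -0.04 and not called, was 0.10 with slide as a block, 0.13 on slide 1 only, and between -0.14 and 0.11 when 1 array was left out, above 0 without J1-serum replicate 1 (0.05), without J1-2i replicate 1 (0.11) or without TKO-serum replicate 2 (0.01). With slide as a block Dazl was -0.84 and Nr5a2 -0.98, on slide 1 only Dazl was -0.97 and Eomes -1.10 (limma adjusted p 0.079), and with normexp Krt7 was -0.35 and Tcstv1 -0.88, none of them called. The filter on all 12 arrays left 5 of 6 fibroblast, 4 of 6 endoderm, 4 of 13 contractile, 2 of 4 Hox and 2 of 8 WNT members tested called, all positive, and the table of the authors gave 2 negative calls of Xlr and Rhox genes. Causes were not tested beyond the fewer genes of that filter. Signal near background limits the dim genes to bounds.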

Other observations

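In 3B3l cells, which were outside the comparison, Zscan4f and Gm4340 of the 2-cell state, chosen after their values were seen, had higher means in 2i than in serum. Zscan4f had signals of 1.45 and 1.71 in 3B3l-serum and 3.80 and 4.15 in 3B3l-2i, and Gm4340 had means of 2.27 and 3.88. Cdx2 and T had means of -0.06 and -0.34 in 3B3l-2i, beside -1.96 and -2.29 in TKO-2i. The Xlr5c and Nxf3 means were -3.94 and -3.36 in 3B3l-serum, below those of J1-serum. These values are given with no test.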
